A study of Mus musculus with 14 samples.

Results

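The genes described are 79 liver transcripts of autophagy, the lysosomal proton pump and vacuolar protein sorting. They were chosen by symbol alone: names that begin with Atp6v, Atg and a digit, Lamp and a digit, Gabarap, Map1lc3 or Vps and a digit. They make up 79 of the 19237 named genes on the arrays, through 89 probe sets, and the brightest probe set of a gene, by its mean over 14 arrays, stands for it. Where another platform symbol shared the probe set, the gene was left out, so Atp6v0c, Atp6v0a4, Atg4a, Atg4d and Vps37a were not analysed here.

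The livers came from mice that carry the K289R substitution in LRH-1 (7 mice) and from wild-type (WT) mice (7 mice). LRH-1 is the nuclear receptor encoded by Nr5a2, and the substitution replaces a lysine to which SUMO is attached. All mice were 17 to 19 weeks old, ate ad libitum and were killed at 7 am, per the labels, and 100 ng of Trizol-extracted total liver RNA per mouse went onto an Affymetrix whole-transcript array. The sources used here do not give strain, sex, litter, RNA batch, scan date or the tissues that carry the substitution.

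Macroautophagy encloses cytoplasm in a double membrane that closes and then fuses with the lysosome. ATG2 and ATG9 proteins supply lipid to the growing membrane, the E2-like enzymes ATG3 and ATG10 serve the conjugation of ATG8 and ATG12 proteins, and the lipid-bound ATG8 family (the LC3 and GABARAP proteins) decorates it. The vacuolar ATPase, built from a cytosolic V1 and a membrane V0 sector, acidifies the lysosome, and LAMP glycoproteins line its membrane. Vps complexes (retromer, ESCRT, HOPS, GARP) sort cargo or tether vesicles on the routes between endosomes, Golgi and lysosome. In liver, autophagy supplies amino acids and lipids between meals.

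Levels are given as log2(intensity + 1) and differences as K289R minus WT on that scale, with the standard error (SE) of limma's moderated model. Each adjusted p is limma's 2-sided p after Benjamini-Hochberg adjustment over all 19237 genes, and a gene is said to have passed below 0.05. Levels of different genes cannot be compared on arrays. The level of Nr5a2 itself was 8.76 in K289R livers and 8.77 in WT livers, a difference of -0.00 ± 0.08 (adjusted p = 0.989), and a substitution of this kind cannot be checked from it. Hepatocyte markers were measured for 5 of 8 listed genes, their mean level ran from 12.25 to 12.42 in K289R livers and from 12.30 to 12.37 in WT livers, and 0 of the 5 passed. Among 1044 olfactory receptor genes, which liver does not use, the 95th percentile was 5.10, and 74 of the 79 genes lay above it; Atp6v1b1, Atp6v1c2, Atp6v1g3, Lamp3 and Lamp5 did not. The log2 values of K289R replicates 6 and 7 were the least spread of the 14 arrays, with interquartile ranges of 2.60 and 2.59, against 2.63 to 2.87 in WT livers and 2.69 to 2.82 on the other K289R arrays. Replicates 1 to 4 and 5 to 7 of each genotype were also treated as sets, which were seen in an earlier analysis of these data and which the labels do not name. Interquartile ranges of WT replicates 5, 6 and 7 (2.84, 2.63 and 2.76) did not separate from those of WT replicates 1 to 4 (2.67 to 2.87). Those of K289R replicates 5, 6 and 7 (2.69, 2.60 and 2.59) all lay below those of K289R replicates 1 to 4 (2.76 to 2.82). A call that changes without K289R replicates 6 and 7 is given beside its gene, and the sets are compared after the gene groups.

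Of the 79 genes, 28 (35.4%) passed, 10 higher and 18 lower in K289R livers. Over all named genes, 19.1% passed, 8.37% higher and 10.8% lower. Since most of the 79 are expressed in liver, the closer background is the 12191 genes above the olfactory level, of which 28.2% passed, 12.3% higher and 15.9% lower; of the 74 genes above that level 37.8% passed, 13.5% higher and 24.3% lower. The median difference of the 79 was -0.00, against 0.05 over all genes. The median size of the difference regardless of sign was 0.17, against 0.12 over all genes. Above the olfactory level it was 0.18 for the 74 genes, against 0.15 over all genes there. In 10 genes the ranges of the genotypes did not overlap, 4 higher and 6 lower (12.7% of the 79, and 13.5% of the 74). The same held for 7.54% of all genes (2.82% higher, 4.73% lower) and for 11.6% of the genes above the olfactory level (4.34% higher, 7.27% lower). The changes thus ran in both directions within the same pathway, and nearly every protein complex held members that passed beside members that did not. Without K289R replicates 6 and 7 the counts were 14 higher and 13 lower of the 79 genes, and 1744 higher and 1674 lower of all genes. With dim genes left out before the fit, 10 were higher and 21 lower of 74, against 31.7% of those 12191 genes (14.4% higher, 17.3% lower). The split between directions depended on how arrays were scaled to each other: 10 of 28 (35.7%) were higher as deposited, 54.3% after quantile normalization, 20.0% after median centring and 46.7% after centring with a common interquartile range. Over all genes that passed, the shares were 43.8%, 54.3%, 36.6% and 47.0% in the same order. After quantile normalization 19 genes were higher and 16 lower, and 23.0% of all genes passed, 12.5% higher and 10.5% lower. In bulk liver, fewer cells of a type and less RNA per cell cannot be told apart.

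**Figure D1:**
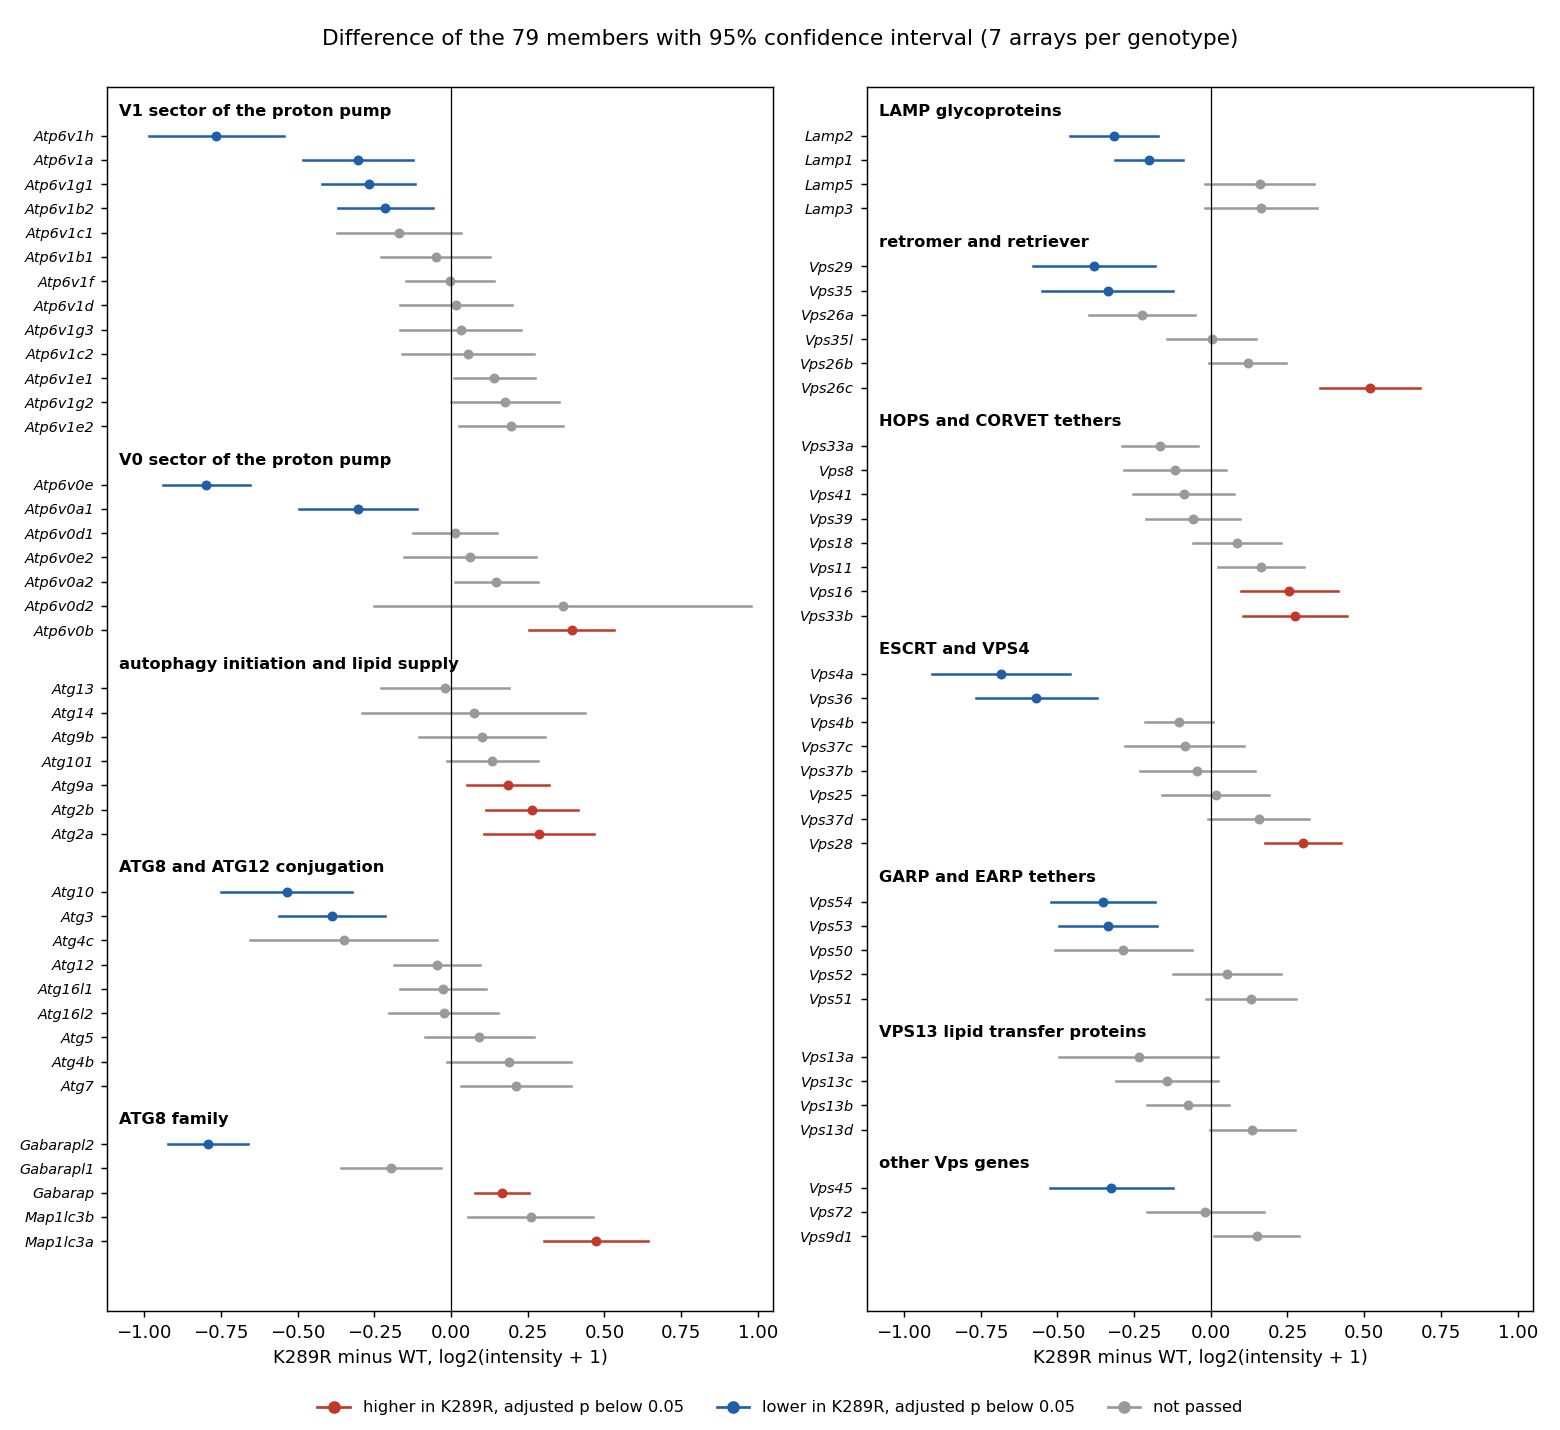
Difference of each of the 79 genes (K289R minus WT, log2 units) with its unadjusted 95% confidence interval, grouped by role, from 7 arrays per genotype. Red points passed as higher (10), blue points passed as lower (18) and grey points did not pass (51). The lowest are Atp6v0e at -0.80, Gabarapl2 at -0.79 and Atp6v1h at -0.76, and the highest are Vps26c at 0.52 and Map1lc3a at 0.47.

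Many lysosomal and autophagy genes are controlled by TFEB-family factors, which bind a palindrome called the CLEAR element around an E-box. Promoter windows were available from RefSeq (GRCm38.p6, 250 bases before to 50 after a start) for 57 of the 79 genes, as 65 windows of 300 bases. The hexamer CACGTG, read on both strands, stood in 13 of the 65 windows (20.0%), against 7.15% of all 32851 windows. Its extension TCACGTGA, which always contains the hexamer, stood in 8 (12.3%), against 0.974% of all windows. The hexamer was found in 2 of 7 windows of genes that passed as higher, in 4 of 14 of genes that passed as lower and in 7 of 44 of genes that did not pass. Elements of the kind LRH-1 binds, searched as CAAGGTCA and CAAGGCCA on both strands, were in 0 of the 65 windows, against 1.56% and 2.4% of all windows. A letter match is a description of the window and no evidence of binding, and a missing match says only that these letters are not in it. The 6 genes that passed and held the hexamer are shown because they include both directions of change: Atp6v0e (chr17:26676146-26676445, plus strand), Atg3 (chr16:45158579-45158878, plus strand), Atp6v1a (chr16:44139210-44139509, minus strand) and Lamp1 (chr8:13158911-13159210, plus strand) were lower in K289R livers, and Atp6v0b (chr4:117887280-117887579, minus strand) and Vps16 (chr2:130424070-130424369, plus strand) were higher. Each sequence runs 5′ to 3′ along the gene, and capitals mark CACGTG or, where present, the longer TCACGTGA.
Atp6v0e: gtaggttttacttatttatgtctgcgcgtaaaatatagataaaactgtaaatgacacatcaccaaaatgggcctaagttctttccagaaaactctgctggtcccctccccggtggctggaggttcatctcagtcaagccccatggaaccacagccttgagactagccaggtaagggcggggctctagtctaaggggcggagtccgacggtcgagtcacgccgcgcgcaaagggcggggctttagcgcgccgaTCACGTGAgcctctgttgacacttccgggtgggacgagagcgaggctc
Atg3: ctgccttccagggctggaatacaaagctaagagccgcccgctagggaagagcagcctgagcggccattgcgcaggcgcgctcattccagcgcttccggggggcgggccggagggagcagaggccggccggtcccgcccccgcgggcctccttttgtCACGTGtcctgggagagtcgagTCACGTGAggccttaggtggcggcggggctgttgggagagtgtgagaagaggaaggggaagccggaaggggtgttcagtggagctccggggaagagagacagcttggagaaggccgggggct
Atp6v1a: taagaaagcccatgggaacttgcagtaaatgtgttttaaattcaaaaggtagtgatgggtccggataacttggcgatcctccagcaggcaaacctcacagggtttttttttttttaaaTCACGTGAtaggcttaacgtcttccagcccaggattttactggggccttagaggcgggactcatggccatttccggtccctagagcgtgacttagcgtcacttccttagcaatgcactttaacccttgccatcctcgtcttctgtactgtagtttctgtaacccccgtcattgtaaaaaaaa
Lamp1: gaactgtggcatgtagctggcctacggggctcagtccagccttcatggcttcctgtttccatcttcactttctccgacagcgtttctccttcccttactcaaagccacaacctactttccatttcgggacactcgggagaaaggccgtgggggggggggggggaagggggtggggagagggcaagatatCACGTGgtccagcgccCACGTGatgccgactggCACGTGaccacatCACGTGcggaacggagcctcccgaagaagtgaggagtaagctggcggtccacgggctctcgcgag
Atp6v0b: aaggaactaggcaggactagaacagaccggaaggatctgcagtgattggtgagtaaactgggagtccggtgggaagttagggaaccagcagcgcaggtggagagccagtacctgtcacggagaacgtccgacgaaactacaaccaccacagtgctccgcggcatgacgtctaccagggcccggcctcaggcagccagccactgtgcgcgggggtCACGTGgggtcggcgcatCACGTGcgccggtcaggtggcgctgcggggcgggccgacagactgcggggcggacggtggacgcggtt
Vps16: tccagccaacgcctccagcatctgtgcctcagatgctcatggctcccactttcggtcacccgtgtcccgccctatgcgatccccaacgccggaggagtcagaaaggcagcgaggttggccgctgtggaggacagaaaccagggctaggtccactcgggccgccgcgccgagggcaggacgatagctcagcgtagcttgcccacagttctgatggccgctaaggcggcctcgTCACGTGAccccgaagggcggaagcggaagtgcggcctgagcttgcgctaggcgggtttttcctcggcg
The Lamp1 window holds the hexamer 4 times within 61 bases of the start, at 61, 45, 28 and 15 bases before it. Atp6v0b holds it at 36 and 18 bases before the start, and Atg3 at 94 and 71. In Atp6v0e the match begins at base 2 after the start, so it lies in the transcribed part.

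The ATG8 family split. Gabarapl2 was lower in K289R livers, Map1lc3a and Gabarap were higher, and Gabarapl1 and Map1lc3b did not pass. Gabarapl2, also known as GATE-16, ranged from 9.20 to 9.57 (median 9.42) in K289R livers and from 10.11 to 10.28 (median 10.19) in WT livers. The highest K289R array lay below the lowest WT array by more than the whole spread of either genotype. Its difference was -0.79 ± 0.06 (SE, adjusted p = 2.34e-08), 0.578 times the WT level. A second Gabarapl2 probe set sat near background, at 4.68 in K289R livers and 4.95 in WT livers, and its difference of -0.27 did not pass (adjusted p = 0.118).

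Map1lc3a, which encodes LC3A, ranged from 7.51 to 7.93 (median 7.79) in K289R livers and from 7.02 to 7.41 (median 7.31) in WT livers. The genotypes did not overlap, with WT replicate 6 the lowest array of all. The difference was 0.47 ± 0.08 (adjusted p = 0.000269), 1.39 times the WT level. Gabarap moved little but evenly, from 11.40 to 11.56 (median 11.50) over K289R livers and from 11.28 to 11.36 (median 11.31) over WT livers. Every K289R array was above every WT array, and the rise of 0.17 ± 0.04 (adjusted p = 0.0072) is 1.12 times the WT level. It did not pass after median centring (adjusted p = 0.0674).

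Map1lc3b encodes LC3B, the usual reporter of autophagosomes. It ranged from 9.10 to 9.85 (median 9.47) in K289R livers and from 9.04 to 9.30 (median 9.15) in WT livers. The K289R arrays were the more spread, 4 of the 7 lay above all WT arrays, and the difference of 0.26 ± 0.10 did not pass (adjusted p = 0.0722). It passed after quantile normalization (adjusted p = 0.0266) and without K289R replicate 1, 3 or 5. Gabarapl1, the GABARAP relative induced by FOXO factors, ranged from 9.71 to 10.15 (median 9.92) in K289R livers and from 9.96 to 10.33 (median 10.15) in WT livers. Its groups overlapped and the difference was -0.19 ± 0.08 (adjusted p = 0.0923). Without K289R replicate 2 it passed (adjusted p = 0.0495).

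Of 9 conjugation genes, 2 passed (22.2%, against 28.2% of the genes above the olfactory level), both lower: the E2-like enzymes. Atg3, which transfers ATG8 proteins to phosphatidylethanolamine, ranged from 8.24 to 8.81 (median 8.65) in K289R livers and from 8.82 to 9.13 (median 9.0) in WT livers. The ranges met without overlapping, and the difference was -0.39 ± 0.08 (adjusted p = 0.00193). Atg10, which joins ATG12 to ATG5, ranged from 5.98 to 6.59 (median 6.42) in K289R livers and from 6.53 to 7.14 (median 6.88) in WT livers, so that 6 of 7 K289R arrays lay below all WT arrays. The difference was -0.53 ± 0.10 (adjusted p = 0.000746), 0.690 times the WT level. The other members of the conjugation machinery did not pass: the E1-like Atg7 differed by 0.21 ± 0.09 (adjusted p = 0.0961), the protease Atg4b by 0.19 ± 0.10, Atg4c by -0.35 ± 0.15, and Atg5, Atg12, Atg16l1 and Atg16l2 by between -0.04 and 0.09. Atg7 passed as higher after quantile normalization (adjusted p = 0.00714) and without K289R replicates 6 and 7 (adjusted p = 0.00326). Atg4c passed as lower with replicate number as a block (adjusted p = 0.0190) and without WT replicate 6 (adjusted p = 0.0397). Atg4b passed as higher in replicates 1 to 4 alone (adjusted p = 0.0440).

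Of 7 genes for initiation and lipid supply, 3 passed, all higher by small amounts. They were the lipid transfer genes Atg2a and Atg2b and the scramblase gene Atg9a. That is 42.9%, against 28.2% of the genes above the olfactory level (12.3% higher). Atg2a ranged from 7.31 to 7.87 (median 7.72) in K289R livers and from 7.21 to 7.60 (median 7.41) in WT livers. The ranges overlapped, with 5 of 7 K289R arrays above all WT arrays, and the difference was 0.29 ± 0.09 (adjusted p = 0.0226). Atg2b ranged from 7.64 to 8.05 (median 7.89) in K289R livers and from 7.47 to 7.79 (median 7.60) in WT livers. In 6 of 7 K289R arrays it was above all WT arrays, with a difference of 0.27 ± 0.07 (adjusted p = 0.012). A second Atg2b probe set differed by 0.08 and did not pass (adjusted p = 0.634). Atg9a was 8.45 ± 0.10 in K289R livers and 8.26 ± 0.11 in WT livers (SD, n = 7 each), a difference of 0.19 ± 0.06 at the edge of the threshold (adjusted p = 0.0496) that was lost in 11 of 14 fits with 1 array left out. All 3 calls were lost after median centring and with the sets as random blocks; without K289R replicate 4 that of Atg2a was lost too (adjusted p = 0.0525). Atg13, Atg101, Atg14 and Atg9b, the other genes of this group, differed by -0.02 to 0.14 and did not pass.

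**Figure D2:**
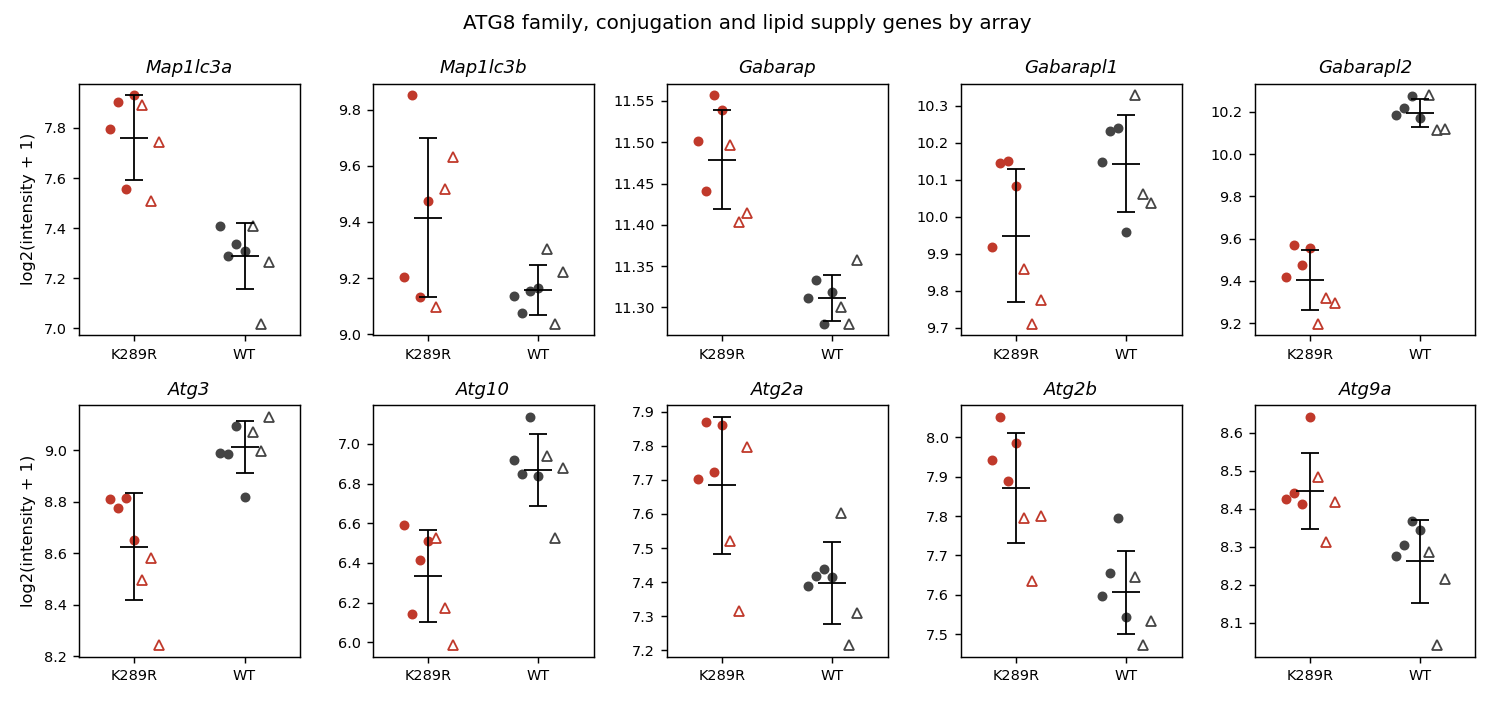
Level (log2 of intensity + 1) of 10 autophagy genes on each array, K289R red at left and WT grey at right. Filled circles are replicates 1 to 4, open triangles are replicates 5 to 7, and bars give the mean ± SD of 7 arrays. The genotypes separate in Map1lc3a, Gabarap, Gabarapl2 and Atg3 and overlap in the other 6.

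Among the 20 proton pump subunits, 6 passed as lower and 1 as higher. Of the genes above the olfactory level, 15.9% passed as lower and 12.3% as higher. Atp6v0e, a small V0 subunit, had the largest fall of the 79 genes. It ranged from 7.65 to 8.05 (median 7.90) in K289R livers and from 8.56 to 8.78 (median 8.70) in WT livers. The gap between the genotypes exceeded the spread within either, and the difference was -0.80 ± 0.07 (adjusted p = 6.06e-08), 0.575 times the WT level. Its paralogue Atp6v0e2 differed by 0.06 ± 0.10 (adjusted p = 0.72).

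Atp6v1h encodes the regulatory H subunit of V1. It ranged from 6.36 to 7.02 (median 6.83) in K289R livers and from 7.22 to 7.90 (median 7.48) in WT livers. The genotypes did not overlap and the difference was -0.76 ± 0.11 (adjusted p = 2.52e-05), 0.589 times the WT level. Atp6v0b, one of the proteolipid ring subunits, went the other way and ranged from 8.59 to 8.84 (median 8.76) in K289R livers and from 8.16 to 8.48 (median 8.34) in WT livers. All K289R arrays lay above all WT arrays, with a difference of 0.39 ± 0.07 (adjusted p = 0.000212), 1.31 times the WT level.

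The other pump subunits that passed as lower differed by smaller steps. Atp6v1a, the ATP-binding A subunit, averaged 8.09 ± 0.20 in K289R livers and 8.39 ± 0.13 in WT livers (SD, n = 7 each), a difference of -0.30 ± 0.09 (adjusted p = 0.0164) that did not pass without K289R replicates 6 and 7 (-0.20, adjusted p = 0.0712). Atp6v1b2, the B subunit of most tissues, averaged 8.20 ± 0.16 in K289R livers and 8.41 ± 0.11 in WT livers. Its difference of -0.21 ± 0.07 lay at the threshold (adjusted p = 0.0494), was lost in 11 of 14 fits with 1 array left out, and was -0.16 without K289R replicates 6 and 7 (adjusted p = 0.176). Atp6v1g1, a G subunit of the stator stalks, averaged 7.73 ± 0.13 in K289R livers and 8.0 ± 0.12 in WT livers, a difference of -0.27 ± 0.07 (adjusted p = 0.0121), with 6 of 7 K289R arrays below all WT arrays. Its second probe set differed by -0.18 (adjusted p = 0.0566). Atp6v0a1, an a subunit of V0, averaged 8.36 ± 0.19 in K289R livers and 8.67 ± 0.18 in WT livers, a difference of -0.30 ± 0.09 (adjusted p = 0.0245). Without K289R replicates 6 and 7 it was -0.20 (adjusted p = 0.117), and single omissions of K289R replicate 6 or 7 or WT replicate 1, 2 or 3 gave adjusted p from 0.0516 to 0.0585.

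The remaining subunits did not pass on all arrays as deposited. The rotor subunits Atp6v1d and Atp6v1f and the V0 subunit Atp6v0d1 had differences of 0.02, -0.00 and 0.01. Atp6v1c1 had -0.17 ± 0.10, Atp6v1e1 0.14 ± 0.06 and Atp6v0a2 0.15 ± 0.06. Atp6v0a2 passed as higher without K289R replicates 6 and 7 (0.19, adjusted p = 0.0446), after quantile normalization (adjusted p = 0.00527) and after centring with a common interquartile range (adjusted p = 0.0374), while its second probe set differed by -0.05. Atp6v1e1 passed as higher under the same 2 scalings, at adjusted p of 0.00798 and 0.0461. The isoforms Atp6v1e2 and Atp6v1g2 had 0.20 and 0.18, and Atp6v1b1, Atp6v1c2 and Atp6v1g3, below the olfactory level, had -0.05, 0.06 and 0.03. Atp6v0d2, a d isoform best known from osteoclasts and macrophages, was the most spread member: the 7 K289R arrays read 6.49, 6.72, 6.87, 5.80, 6.64, 4.35 and 5.21 from replicate 1 to 7, and WT arrays ran from 5.33 to 6.12. The K289R arrays fell on both sides of the WT range, 4 above and 2 below, and the difference over all arrays was 0.36 ± 0.29 (adjusted p = 0.429). It was 0.64 (adjusted p = 0.0410) without K289R replicate 6 and 0.86 (adjusted p = 0.000578) without replicates 6 and 7.

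Both LAMP genes above the olfactory level were lower in K289R livers. Lamp2, which also forms the receptor of chaperone-mediated autophagy, ranged from 10.95 to 11.42 (median 11.18) in K289R livers and from 11.36 to 11.64 (median 11.52) in WT livers. The lowest 5 of the K289R arrays lay below all WT arrays, and the difference was -0.32 ± 0.07 (adjusted p = 0.00228), 0.804 times the WT level. Lamp1 ranged from 10.44 to 10.74 (median 10.56) in K289R livers and from 10.75 to 10.84 (median 10.79) in WT livers. The genotypes did not overlap, and the difference of -0.20 ± 0.05 passed as deposited (adjusted p = 0.0092) but not after quantile normalization (0.0565) or centring with a common interquartile range (adjusted p = 0.213). Lamp3 and Lamp5, below the olfactory level in both genotypes, differed by 0.16 each and did not pass.

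**Figure D3:**
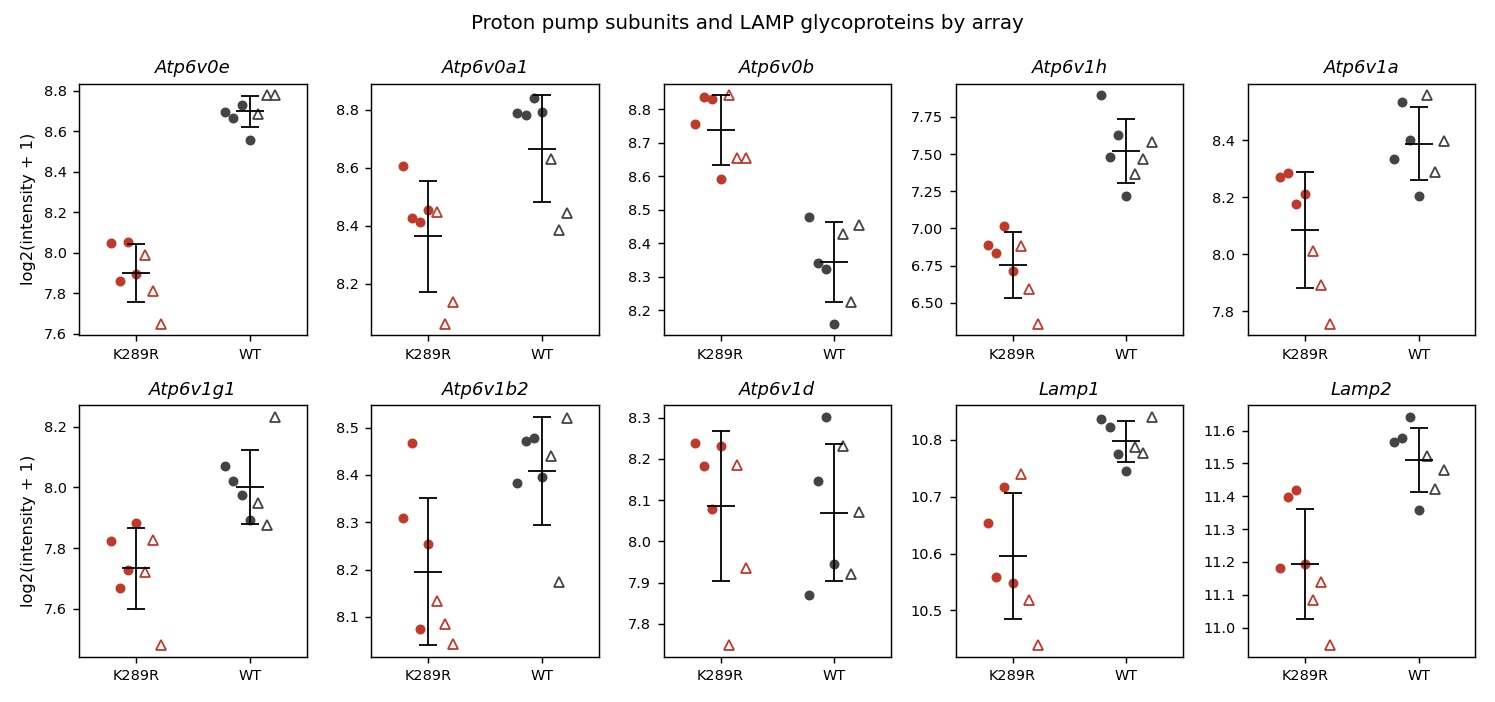
Level (log2 of intensity + 1) of 8 proton pump subunits and of Lamp1 and Lamp2 on each array, K289R red at left and WT grey at right, with filled circles for replicates 1 to 4, open triangles for replicates 5 to 7 and bars for mean ± SD of 7 arrays. Atp6v0e, Atp6v1h and Lamp1 lie lower in K289R without overlap, Atp6v0b lies higher, and Atp6v1d differs by 0.02.

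The retromer recycles receptors from endosomes, and the related retriever shares its subunit VPS29. Vps26c, the retriever subunit once called DSCR3, had the largest rise of the 79 genes. It ranged from 7.72 to 8.11 (median 7.88) in K289R livers and from 7.12 to 7.51 (median 7.43) in WT livers. Every K289R array was above every WT array, and the difference was 0.52 ± 0.08 (adjusted p = 7.27e-05), 1.43 times the WT level. Vps29 ranged from 7.10 to 7.81 (median 7.54) in K289R livers and from 7.64 to 8.10 (median 7.96) in WT livers. The ranges overlapped, with 4 of 7 K289R arrays below all WT arrays, and the difference was -0.38 ± 0.09 (adjusted p = 0.00669). Vps35, the scaffold of the retromer core, averaged 7.85 ± 0.24 in K289R livers and 8.18 ± 0.18 in WT livers (SD, n = 7 each), a difference of -0.34 ± 0.10 (adjusted p = 0.0242). That call was lost without any of K289R replicates 5 and 6 and WT replicates 1 and 3, at adjusted p up to 0.0604, and without K289R replicates 6 and 7 together (adjusted p = 0.0992). The third core subunit, Vps26a, differed by -0.22 ± 0.08 (adjusted p = 0.0677), its paralogue Vps26b by 0.12 ± 0.06 and the retriever scaffold Vps35l by 0.00 ± 0.07. Vps26a passed as lower in replicates 5 to 7 alone (adjusted p = 0.0297) and without K289R replicate 2 or 3 or WT replicate 1 or 4.

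ESCRT complexes bud vesicles into endosomes, and VPS4 ATPases take them apart afterwards. Vps4a ranged from 6.10 to 6.75 (median 6.56) in K289R livers and from 6.95 to 7.51 (median 7.17) in WT livers. The genotypes did not overlap, and the difference was -0.68 ± 0.11 (adjusted p = 0.000103), 0.623 times the WT level. Its paralogue Vps4b differed by only -0.10 ± 0.05 (adjusted p = 0.194). Vps36, an ESCRT-II subunit that binds ubiquitin, ranged from 6.52 to 7.04 (median 6.84) in K289R livers and from 7.01 to 7.53 (median 7.39) in WT livers. A single K289R array reached the WT range, and the difference was -0.57 ± 0.09 (adjusted p = 0.000184), 0.675 times the WT level. Its ESCRT-II partner Vps25 differed by 0.02 ± 0.08. Vps28, an ESCRT-I subunit, ranged from 9.58 to 9.97 (median 9.78) in K289R livers and from 9.39 to 9.58 (median 9.50) in WT livers. In 6 of 7 K289R arrays it was above all WT arrays, with a difference of 0.30 ± 0.06 (adjusted p = 0.000973), 1.23 times the WT level. The ESCRT-I subunits Vps37b, Vps37c and Vps37d had differences of -0.04, -0.09 and 0.16 and did not pass.

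The HOPS tether brings endosomes and autophagosomes to the lysosome. Of 8 genes of HOPS, the related CORVET tether and their relatives, 2 passed and both were higher. That is 25.0%, against 28.2% of the genes above the olfactory level. Vps16, a core subunit, ranged from 6.62 to 6.94 (median 6.77) in K289R livers and from 6.31 to 6.65 (median 6.59) in WT livers. The ranges overlapped slightly, and the difference was 0.26 ± 0.08 (adjusted p = 0.0211). Vps33b, a relative of the core subunit Vps33a that pairs with Vipas39, ranged from 6.70 to 7.20 (median 7.10) in K289R livers and from 6.67 to 6.97 (median 6.76) in WT livers. It was above all WT arrays in 6 of 7 K289R arrays, with a difference of 0.27 ± 0.08 (adjusted p = 0.0212). Both calls were lost after median centring, with adjusted p of 0.0876 for Vps16 and 0.0794 for Vps33b. Vps33a ran the other way, at -0.17 ± 0.06, and did not pass (adjusted p = 0.0584). Without K289R replicate 1 (adjusted p = 0.0421) or WT replicate 6 (adjusted p = 0.0297) Vps33a passed as lower. Vps11, Vps18, Vps39, Vps41 and Vps8 differed by between -0.12 and 0.16 and did not pass.

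The GARP tether receives vesicles at the Golgi, and the EARP tether shares its subunits Vps51, Vps52 and Vps53. Vps53 ranged from 6.94 to 7.23 (median 7.03) in K289R livers and from 7.15 to 7.55 (median 7.41) in WT livers, with 5 of 7 K289R arrays below all WT arrays. The difference was -0.33 ± 0.08 (adjusted p = 0.0035). Vps54, particular to GARP, averaged 5.92 ± 0.17 in K289R livers and 6.27 ± 0.12 in WT livers (SD, n = 7 each), a difference of -0.35 ± 0.08 (adjusted p = 0.004). Vps50, its counterpart in EARP, differed by -0.29 ± 0.11 (adjusted p = 0.0693), and Vps51 and Vps52 differed by 0.13 and 0.05. Vps50 passed as lower in replicates 5 to 7 alone (adjusted p = 0.0435) and without K289R replicate 1 or 3 or WT replicate 4 or 6. Vps45, a partner of Golgi and endosome syntaxins, ranged from 5.34 to 5.88 (median 5.61) in K289R livers and from 5.71 to 6.21 (median 5.92) in WT livers. The ranges overlapped and the difference was -0.32 ± 0.10 (adjusted p = 0.0207), lost without WT replicate 2 or 3 and without K289R replicates 6 and 7 (adjusted p = 0.100). Among the VPS13 lipid transfer proteins 0 of 4 passed. Vps13d, with the smallest p of these, ranged from 8.33 to 8.67 (median 8.55) in K289R livers and from 8.26 to 8.51 (median 8.41) in WT livers. The groups overlapped and the difference was 0.14 ± 0.07 (adjusted p = 0.176). Vps13d passed as higher without K289R replicates 6 and 7 (0.21, adjusted p = 0.0235), in replicates 1 to 4 alone (0.24, adjusted p = 0.0455) and after quantile normalization (adjusted p = 0.00733). Vps13a, Vps13b and Vps13c had differences of -0.24, -0.07 and -0.14. In Vps13a, Vps13b and Vps13d, second probe sets differed in sign from the ones used. Vps72, a chromatin protein in spite of its symbol, differed by -0.02 ± 0.09, and Vps9d1 by 0.15 ± 0.07 (adjusted p = 0.129).

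**Figure D4:**
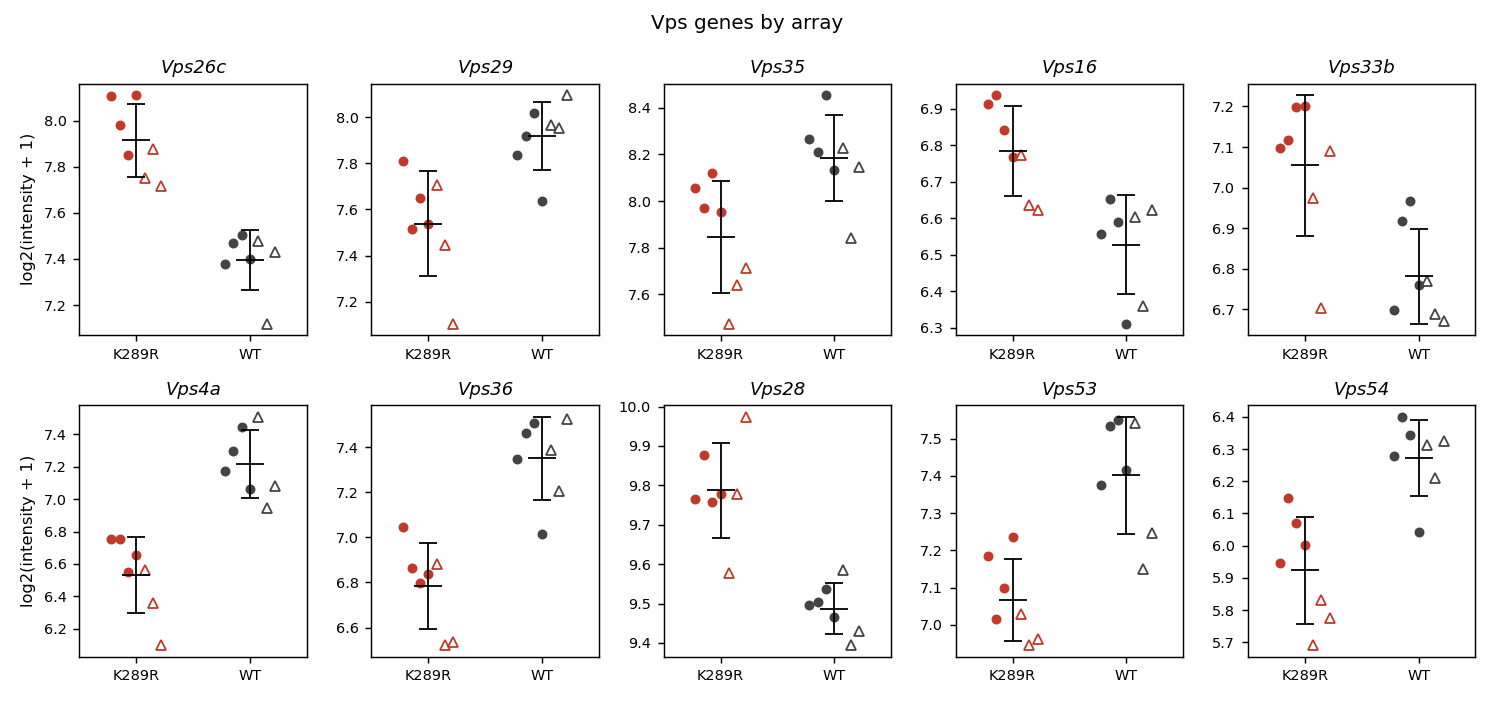
Level (log2 of intensity + 1) of 10 Vps genes on each array, K289R red at left and WT grey at right, with filled circles for replicates 1 to 4, open triangles for replicates 5 to 7 and bars for mean ± SD of 7 arrays. Vps26c (higher) and Vps4a (lower) separate the genotypes, and the other 8 genes overlap in at least 1 array.

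Replicates 1 to 4 and replicates 5 to 7 were also compared apart. All 28 genes that passed had the same sign in both sets, which is a description, since the calls rest on the same arrays. Gabarapl2 had differences of -0.71 in the set of replicates 1 to 4 and -0.90 in the set of replicates 5 to 7. In that order Atp6v0e had -0.70 and -0.93, Atp6v1h -0.69 and -0.86, and Vps4a -0.57 and -0.84. Map1lc3a had 0.46 and 0.49, and Vps26c 0.58 and 0.44. The balance of directions differed: 12 of the 79 genes passed as higher and 9 as lower in replicates 1 to 4 alone, and 3 as higher and 15 as lower in replicates 5 to 7 alone. It differed over all genes too, with 1332 higher and 1378 lower (49.2% higher) against 363 and 1399 (20.6%). Of the 28 genes, 10 did not pass in replicates 1 to 4 alone and 13 did not pass in replicates 5 to 7 alone. Atp6v1a had -0.13 in the first set (adjusted p = 0.353) and -0.53 in the second (adjusted p = 0.0137), Vps29 -0.22 and -0.59, and Vps54 -0.22 and -0.52. Atg2a had 0.37 in the first set (adjusted p = 0.00329) and 0.17 in the second (adjusted p = 0.473), and Vps16 had 0.34 and 0.15. Atg3 had -0.21 in the first set, where it did not pass (adjusted p = 0.0859), and -0.63 in the second (adjusted p = 0.00399). A test of the difference between the sets passed for 0 of the 79 genes by limma, against 22 of all 19237 genes. In that test 12 of the 79 had an unadjusted p below 0.05. The share of all genes below that p was not counted, so the 12 cannot be read as particular to the 79. The smallest adjusted p among the 79 was 0.370, for Lamp3. With the sets as random blocks 17 of the 28 genes still passed; those that did not were Atp6v1g1, Atp6v1b2, Atp6v0a1, Atg9a, Atg2a, Atg2b, Lamp1, Vps35, Vps16, Vps33b and Vps45, with adjusted p from 0.0561 to 0.161. By that fit 5 of the 79 genes were higher and 12 lower, and 11.3% of all genes passed, 4.01% higher and 7.3% lower. With the set as a fixed term instead, 10 of the 79 were higher and 22 lower, and 1855 and 2264 of all genes.

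**Figure D5:**
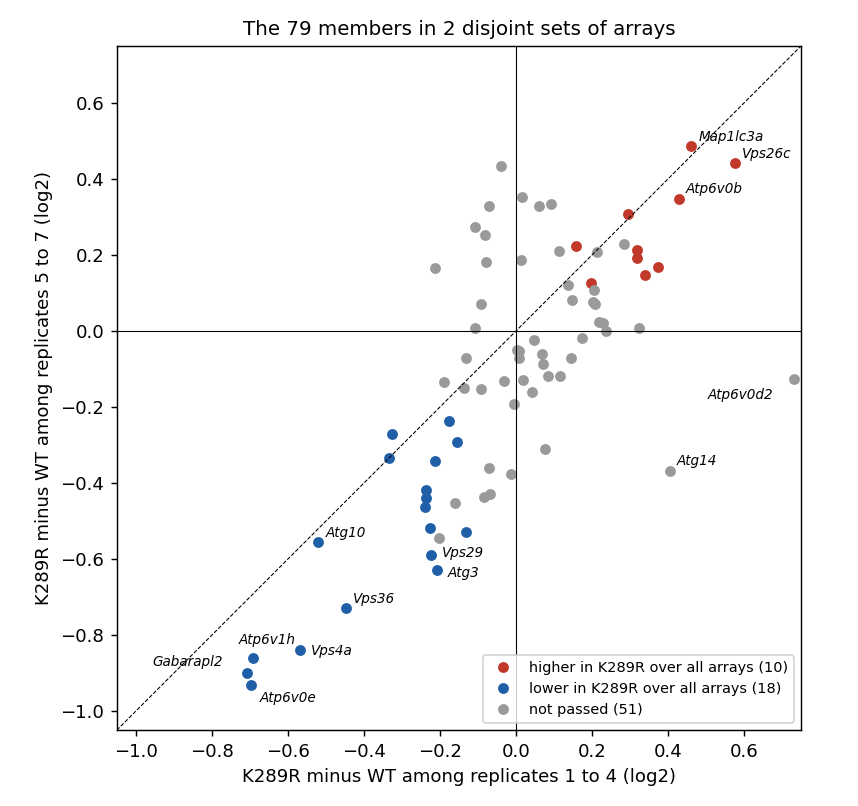
Difference (K289R minus WT, log2 units) of the 79 genes among replicates 1 to 4 (horizontal axis) and among replicates 5 to 7 (vertical axis), coloured by the call over all arrays, with the diagonal dashed. The 28 genes that passed lie in the lower left and upper right quadrants, and Atp6v0d2, at 0.73 and -0.13, lies farthest from the diagonal.

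Genes that work beside these were read from lists by role, given as counts. Most of these genes lay above the olfactory level, where 28.2% of genes passed, against 19.1% of all genes. The ESCRT and retromer partners had 3 higher and 8 lower of 31: Chmp2b, Chmp4b and Chmp2a, which build the ESCRT-III filament, differed by -0.78, -0.50 and -0.48, and the ESCRT-I accessory gene Mvb12a by 0.60 ± 0.06 (adjusted p = 7.2e-07). Chmp2b and Mvb12a thus moved in opposite directions, as the Vps genes of the same machinery did. Autophagy receptors had 3 higher and 2 lower of 10. Fundc1, a mitochondrial receptor that binds LC3, ranged from 5.42 to 6.32 (median 6.19) in K289R livers and from 6.83 to 7.29 (median 7.14) in WT livers. Its genotypes did not overlap, and it was 0.477 times the WT level, a difference of -1.07 ± 0.12 (adjusted p = 2.12e-06). Tax1bp1 differed by -0.69 ± 0.08, while Sqstm1, which encodes the cargo receptor p62, differed by 0.27 ± 0.05 (adjusted p = 0.000718) and Bnip3 by 0.34 ± 0.10.

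Initiation and regulation genes had 2 higher and 5 lower of 16, with Sh3glb1 at -0.79, the FIP200 gene Rb1cc1 at -0.60, Wdr45 at 0.54 and the kinase gene Ulk1 at 0.48. Fusion and maturation genes had 4 higher and 3 lower of 12: the SNARE gene Stx7 differed by -0.67 and the late endosomal GTPase gene Rab7 by -0.34, against 0.35 for the SNARE gene Vamp8 and 0.39 for the Rab7 effector gene Rilp. Genes that control TFEB and mTORC1 had 5 higher and 3 lower of 25. Rheb, the GTPase that activates mTORC1, ranged from 6.44 to 7.35 (median 7.10) in K289R livers and from 8.19 to 8.69 (median 8.39) in WT livers. The gap between the genotypes was wide, and Rheb was 0.386 times the WT level, a difference of -1.37 ± 0.12 (adjusted p = 6.22e-08). The lysosomal arginine sensor gene Slc38a9 differed by -0.62, and the mTORC1 inhibitor genes Tsc1 and Akt1s1 by 0.39 each.

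Pump accessory genes had 2 higher and 2 lower of 10. Atp6ap2, the prorenin receptor, differed by 0.50 ± 0.09 (adjusted p = 0.000252) and Rnasek by 0.40, while Dmxl1 and Dmxl2, which encode assembly factors, differed by -0.38 and -0.31. Lysosomal enzymes had 8 higher and 6 lower of 26: Psap differed by 0.27 ± 0.05 and the cathepsin gene Ctsl by 0.25, against -0.59 ± 0.10 for Ctss and -0.38 for Ppt1. Lysosomal membrane proteins other than LAMPs had 3 higher and 3 lower of 18, with Ostm1 at 0.51, the sialic acid exporter gene Slc17a5 at -0.42, Laptm4a at -0.27 and Cd63 at -0.81 on a probe set near background (3.10 in K289R livers, 3.90 in WT livers). The list medians ran from -0.08 to 0.14, against 0.05 over all genes. With the array sets as random blocks, the pump accessory list had 1 higher and 0 lower, initiation 2 and 3, receptors 1 and 2, TFEB and mTORC1 control 2 and 3, enzymes 4 and 4, membrane proteins 1 and 3, and ESCRT and retromer partners 1 and 7. Fusion genes had 4 higher and 3 lower by that fit too. Of the genes named from these lists, Rnasek, Dmxl1, Dmxl2 and Bnip3 did not pass by it, at adjusted p of 0.0627 to 0.101.

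Kupffer cells, the macrophages of the liver, also express lysosomal genes such as Ctss, and markers of other liver cells were read from the same arrays. Of 14 Kupffer cell and macrophage markers, 1 was higher (C1qa at 0.30 ± 0.10) and 4 were lower: Vsig4 at -0.75 ± 0.12, C1qc at -0.52 ± 0.11, Folr2 at -0.46 ± 0.10 and Adgre1 at -0.42 ± 0.13. Clec4f, particular to Kupffer cells, differed by -0.02 and Cd68 by 0.03. The mean marker level ran from 6.91 to 7.60 over K289R arrays and from 7.32 to 7.56 over WT arrays, and the summed intensity from 2062 to 3625 over K289R arrays and from 2901 to 3422 over WT arrays. Of the 14, 13 lay above the olfactory level, where 28.2% of genes passed (12.3% higher, 15.9% lower), and Marco did not. Sinusoidal endothelium had 1 higher and 1 lower of 8, stellate cells 2 higher and 1 lower of 6, lymphocytes 1 higher and 0 lower of 4, and cholangiocytes 0 of 4. With the array sets as random blocks, the Kupffer list had 0 higher and 3 lower (C1qa and Adgre1 did not pass) and the stellate list 0 higher and 1 lower. Of all genes, 4.01% passed as higher and 7.3% as lower by that fit. The part of these cells in the differences of the 79 genes was not tested.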

How the data were processed

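Total liver RNA of 7 K289R and 7 WT mice was measured with 1 array per mouse. The deposited values are probe set intensity on a linear scale (2.104 to 12782). Per the submitters' processing notes they come from Affymetrix Expression Console. The sources used here do not give its version, its background and summary methods or the build. The number of arrays limits the precision.

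Of 35556 probe sets, 21456 had 1 gene symbol, 2376 had several and were not used, and the annotation table did not name 11724. Symbols were checked by Entrez identifier against a GRCm38.p6 gene table, which matched 21277 and replaced 2, none of them among the 79 genes. From the deposited intensity, log2(intensity + 1) was computed, a scale that understates changes of dim genes. The fit used limma 3.58.1 (R 4.3.3) with genotype alone and an intensity trend in the prior variance, on all 19237 genes with no filter. It was tested on simulated data with independent noise, equal spread on every array and no array sets. That test therefore does not cover the array sets or the unequal spread seen here. Where 10 of the 79 genes had more than 1 probe set, the other probe sets were alternatives. Counting used Python 3.11.15 with pandas 2.3.3 and numpy 2.4.6, and plots matplotlib 3.10.9.

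The 79 genes, the pathway lists and the tests were chosen with earlier results of these data known. Lowest, median and highest values are given for the 8 largest rises and falls that passed, for the ATG8 family, Lamp1 and Lamp2, and for the smallest p in each role group without one of these; of each pathway list, up to 4 passing genes by smallest p, plus Clec4f and Cd68, named after their values were seen. Other genes of the 79 are given by difference. Labels call the mice biological replicates. Alternatives were other scalings, pseudocounts of 0 and 16, a filter on dim genes, other probe sets, and replicate number and array sets as blocks. Further ones were array sets as a fixed term, subsets of arrays, array weights and other variance priors.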

Additional observations from a re-analysis of the deposited data

Results flagged for a closer look

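In 162 groups of 7 arrays (the 79 genes and the median and interquartile range of the arrays, in both genotypes), 4 held an array whose gap to its nearest neighbour was a larger share of the group's range than Dixon's critical value. That is 2.47% of the groups, and chance alone gives about 5%. The array was K289R replicate 5 in 1 group and in the other 3 was WT replicate 6, the WT array with the lowest interquartile range (2.63).

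Atp6v1f, which did not pass, read 8.16 on K289R replicate 5, against 8.46 to 8.62 on the other K289R arrays. Atp6v1b2 read 8.17 on WT replicate 6, against 8.38 to 8.52 on the other WT arrays. Map1lc3a read 7.02 on WT replicate 6, against 7.26 to 7.41 on the other WT arrays. Vps26c read 7.12 on WT replicate 6, against 7.38 to 7.51 on the other WT arrays. Without WT replicate 6, Map1lc3a and Vps26c still passed as higher and Atp6v1b2 still passed as lower.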

How the results depend on the processing

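Alternatives for the 79 genes were 17 other settings and 14 fits with 1 array left out, and none reversed the sign of a gene that passed. Of the 28 genes that passed, 8 did so in all of them: Map1lc3a and Vps26c (higher) and Atp6v1h, Atp6v0e, Atg10, Lamp2, Vps4a and Vps36 (lower). With 1 array left out, 22 of the 28 passed every time, 8 to 12 were higher and 14 to 21 were lower, and over all genes 1293 to 1634 were higher and 1757 to 2223 lower. The others among the 28 were lost in some: Atp6v1b2 and Atg9a in 11 of 14 fits each, Atp6v0a1 in 5, Vps35 in 4, Vps45 in 2 and Atg2a in 1. Of the 79 genes, 19 were higher after quantile normalization and 4 after median centring, against 10 as deposited; the median of all genes shifted by 0.06 and 0.03, against 0.05. Of all genes that passed, 43.8% were higher as deposited, 54.3% after quantile normalization and 36.6% after median centring. With the array sets as random blocks (consensus correlation 0.178), 5 of the 79 and 771 of all genes were higher. With the set as a fixed term, 10 of the 79 were higher and 22 lower, and 1855 and 2264 of all genes. That fit also passed Atg4c, Vps26a, Vps33a and Vps50 as lower. Replicates 1 to 4 alone gave 12 higher and 9 lower of the 79 genes (57.1% of those that passed were higher) and 1332 and 1378 of all genes (49.2%). Replicates 5 to 7 alone gave 3 and 15 (16.7%), and 363 and 1399 of all genes (20.6%). These subsets hold fewer arrays; the cause of the other shifts was not tested. The replicate block left 10 of the 79 genes higher and 20 lower, and 1661 and 2177 of all genes. The labels do not say that a replicate number marks a shared litter or day, deviations of same-numbered arrays correlated from -0.30 to 0.56, and 2 of 7 arrays matched their own number best, so the numbers were not taken to pair the mice. Without dim genes, 10 were higher and 21 lower of the 74 left. Signal over background limits what can be said of the 5 genes below the olfactory level.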
